A study of Homo sapiens with 4 samples.

Results

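The 10 genes described here set the G1 restriction point of the cell cycle. They are the D-type cyclins CCND1, CCND2 and CCND3, their kinases CDK4 and CDK6, cyclin E1 (CCNE1) with its kinase CDK2, the inhibitors CDKN1B and CDKN2A, and RB1. They were selected by gene name from 60544 genes in a table of read counts, and all 10 were found there. The table holds poly(A) RNA from PC3, an established human prostate cancer cell line. Cells labelled shNC served as control and cells labelled sh812 as METTL3 knockdown, with 2 libraries each. The labels give no other treatment, clone or time, and do not say whether replicates were separate cultures, so the p-values below measure only the spread between these libraries. METTL3 carries the catalytic site of the enzyme complex that places m6A, a methyl mark on adenosines, in messenger RNA. These are bulk libraries, so fewer cells of a state and less RNA per cell cannot be told apart.

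D-type cyclins bind and activate CDK4 and CDK6, which phosphorylate the retinoblastoma protein RB. RB holds E2F transcription factors inactive, and its phosphorylation frees them to switch on genes for DNA replication. Cyclin E with CDK2 completes this step. INK4 proteins such as p16 block CDK4 and CDK6, and CIP/KIP proteins such as p27 block CDK2. In prostate cancer, loss of RB and raised activity of the cyclin D kinases are known features of advanced disease.

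Of the 10 members, 9 passed the low-count filter and were tested, and CCND2 did not. Transcripts of the kinases CDK6 and CDK4 were higher in sh812, by 1.30-fold and 1.16-fold. The call of CDK6 held under all 10 other settings that kept every library, and that of CDK4 under 7. No member was called lower. CCND1, CCNE1 and RB1 were below the control range in both sh812 libraries, at 89.8%, 75.2% and 94.6% of the shNC level. So were 27.4% of all genes tested. CDK4, CDK6 and CDKN2A, the last not called, were above the control range, as were 26.2% of all genes tested. The threshold for a call was 0.05 on the Benjamini-Hochberg adjusted p of edgeR (quasi-likelihood fit, 16802 genes). By that rule 2 of the 9 tested members were called higher and 0 lower, where 5.43% of all genes tested were called higher and 5.42% lower. At an unadjusted p under 0.05 in edgeR, which 4161 of the 16802 genes passed in either direction, 2 members were higher and 2 lower. Called lower were 1 or 2 members under 9 of the 14 other settings, and the members in question were CCND1, CCNE1 and, without a low-count filter, CCND2.

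The start sites of the members were examined for short motifs. RefSeq windows (GRCh38.p14) of 300 bases, 250 before and 50 after a transcript start, were listed for 7 of the 10 members, 11 windows in all. CCND1, CCND2 and CDK2 had no window, so whether their start sites hold any of the motifs is not known. Several listed starts lie downstream of the 5′ end of the GENCODE gene. For windows of CDK4, CDKN1B and RB1, the distance was 3703, 2310 and 172724 bases, and for CCND3 at least 1669. Of 15 CDK4 transcripts in GENCODE, 1 starts upstream of the stretch printed here and 9 start inside it, so parts of it are transcribed in some models. The E-box CACGTG, searched on both strands, was found in 2 of the 11 windows, the single window of CDK4 and 1 of the windows of CDK6, and in 7.26% of all 35116 windows. CDK4 held 3 E-boxes, which begin 216, 196 and 101 bases before the RefSeq start. CDK6 held 1, which begins 30 bases after it. The 250 bases before the RefSeq start of CDK4 (chr12:57752311-57752560, minus strand) and 30 bases around the CDK6 site (chr7:92836526-92836555, minus strand) are shown 5′ to 3′ with the E-boxes in capitals, because these are the members that were called.
CDK4: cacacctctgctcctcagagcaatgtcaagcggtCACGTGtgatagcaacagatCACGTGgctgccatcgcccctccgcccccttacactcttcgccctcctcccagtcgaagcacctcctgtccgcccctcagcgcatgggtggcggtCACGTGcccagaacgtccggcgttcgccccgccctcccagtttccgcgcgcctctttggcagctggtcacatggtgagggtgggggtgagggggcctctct
CDK6: cgaggccgcggaCACGTGcggagagccgac
None of the 11 windows held the E2F letters TTTCCCGC, TTTCGCGC, TTTGCCGC or TTTGGCGC, which 3.31% of all windows hold, or the CRE letters TGACGTCA, which 1.85% hold. GGGCGG was found in 7 of the 11 windows and in 45% of all windows. A match describes letters in the window, and binding was not measured.

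Library totals ran from 31450648 to 37041330 counts. METTL3 had 1682 and 1379 counts in shNC and 269 and 313 in sh812, which fell by 2.42 on the log2 scale (SE 0.11; edgeR, adjusted p = 5.54e-14). The epithelial markers KRT8, KRT18, EPCAM and CDH1 were present in every library, and KLK3 was at 0 counts. Of the 4 epithelial markers 3 were called higher and 0 lower, beside 5.43% and 5.42% of all genes tested. These 4 genes are too few to describe the epithelial state of the cells. The 4 summed to 441 and 499 CPM in shNC and 551 and 567 CPM in sh812 (CPM, counts scaled to the library total). Of the blood and endothelial markers, CD3E was at 0 counts, LYZ and VWF did not exceed 2, and PTPRC did not exceed 32, while PECAM1 had 748 to 1379 counts and was called higher. The 3 fibroblast markers summed to 41.0 and 43.9 CPM in shNC and 31.1 and 36.8 CPM in sh812, mostly from COL1A1, which was not called. COL3A1 was called lower (log2 fold change -1.51; edgeR, adjusted p = 0.00131), and PDGFRB had a value of 0.69 and was not called. Mitochondrially encoded genes took 1.23% to 1.34% of counts in shNC and 1.61% to 1.68% in sh812. The part of these shifts in the results below was not tested.

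**Figure D1:**
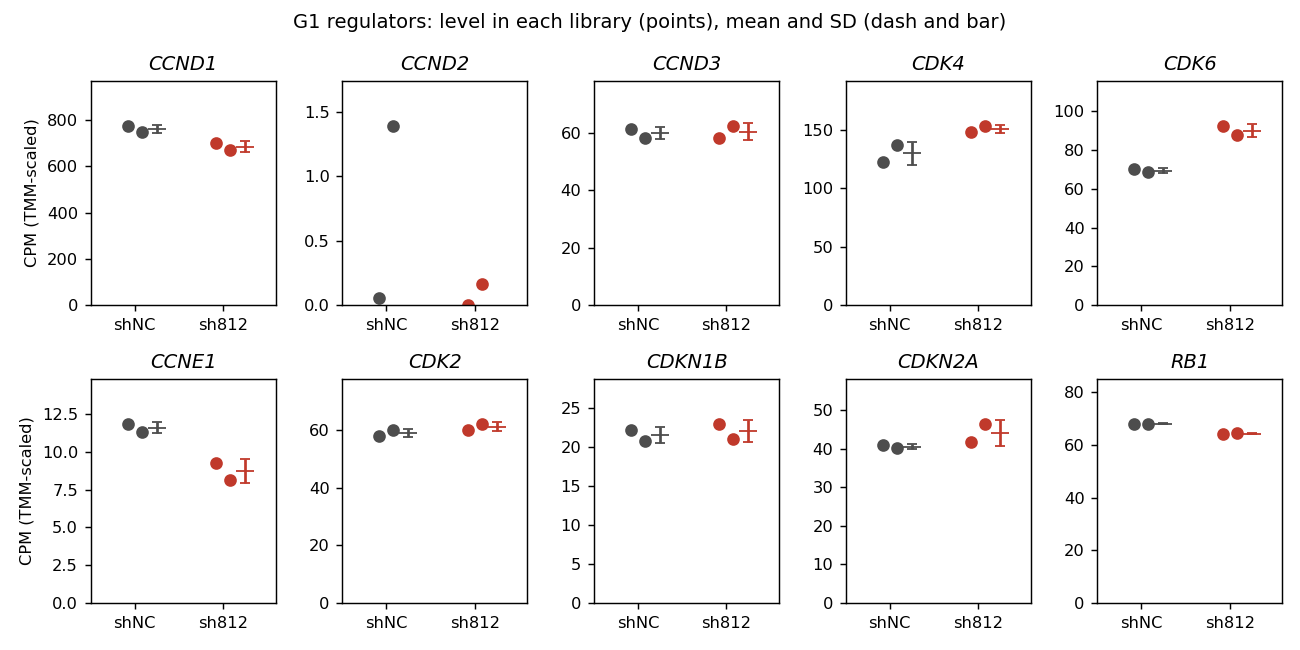
Level of each of the 10 members in CPM (y axis from 0, counts scaled to library size after TMM) in the 2 shNC and 2 sh812 libraries; points are libraries, and the dash with bar is the mean and SD (not drawn for CCND2). CDK6, CDK4 and, by a narrow margin, CDKN2A lie higher in both sh812 libraries. CCND1, CCNE1 and RB1 lie lower, and CCND2 is near 0 except in shNC replicate 2.

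CCND1 (chr11:69641087-69654474, plus strand, GRCh38 as for all gene positions here) encodes cyclin D1, the main partner of CDK4 and CDK6 in most epithelial cells. Its level was 775 and 750 CPM in the shNC libraries and 702 and 668 CPM in the sh812 libraries. Both sh812 values lay below both shNC values. On the log2 scale the difference was -0.15 (SE 0.06, 95% interval -0.27 to -0.04), and it missed the threshold with an adjusted p of 0.0765 in edgeR. Under 5 of the 14 alternative settings it was called lower, and scaling by library size alone gave the largest change among these, -0.20 (adjusted p = 0.0156 in edgeR). Exons of CCND1 overlap those of LTO1 on the opposite strand over 497 bases. LTO1 had 814 to 1034 counts and CCND1 23720 to 29377. The sources used here do not state whether strand was used in counting, here or for the other overlaps.

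CCND3 (chr6:41934933-42050357, minus strand), which encodes cyclin D3, had 61.5 and 58.4 CPM in shNC and 58.4 and 62.5 CPM in sh812, so the groups overlapped. Its log2 fold change of 0.01 had a 95% interval of -0.14 to 0.16 and an adjusted p of 0.946 in edgeR. CCND2 (chr12:4273772-4305350, plus strand), which encodes cyclin D2, had 2 and 44 counts in shNC and 0 and 6 counts in sh812. A single control library held nearly all of its counts, and no fold is given. Without a low-count filter edgeR called CCND2 lower (log2 fold change -3.02, adjusted p = 0.00501), a call that rests on that library.

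Among the D-type cyclins, cyclin D1 transcripts dominated. Per kilobase of exon, CCND1 made up 93.8% of the summed CCND1, CCND2 and CCND3 level in each shNC library, and 93.5% and 92.8% in the sh812 libraries. The share of CCND3 was 6.20% and 6.08% in shNC and 6.48% and 7.22% in sh812. Dividing by the longest transcript instead of all exons gave CCND1 shares of 87.5% and 87.6% in shNC and 87.0% and 85.6% in sh812. Under both lengths the sh812 shares lay below the shNC shares. Shares and ratios are given here as descriptions, with no test.

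CDK6 (chr7:92604921-92836594, minus strand) encodes a cyclin D kinase that many epithelial cells express at a lower level than CDK4. It had 70.3 and 68.6 CPM in shNC and 92.6 and 87.7 CPM in sh812, with no overlap between groups. CDK6 rose by 0.38 on the log2 scale (SE 0.07, 95% interval 0.24 to 0.52, adjusted p = 0.000713 in edgeR). It was past the threshold in all 10 alternatives of scaling, filtering, test, block and length correction, with values from 0.33 to 0.48. Leaving out sh812 replicate 1 gave 0.34 and ended the call (adjusted p = 0.0785 in edgeR), and the call held without any 1 of the other 3 libraries. The antisense gene AC002454.1, whose exons share 81 bases with CDK6, had at most 11 counts in a library.

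CDK4 (chr12:57747727-57756013, minus strand) encodes the other cyclin D kinase. It had 123 and 137 CPM in shNC and 148 and 153 CPM in sh812. The sh812 libraries were above both controls, while the controls differed from each other by more than the sh812 libraries did. CDK4 rose by 0.22 on the log2 scale (SE 0.06, 95% interval 0.08 to 0.35, adjusted p = 0.0306 in edgeR). This call was less settled than that of CDK6. It was lost with library size alone (0.17, adjusted p = 0.0789 in edgeR) and with each library's length trend removed (0.17, adjusted p = 0.0706 in edgeR). It was also lost with the length and GC trends removed (0.17, adjusted p = 0.0545 in edgeR) and without shNC replicate 1 (0.14, adjusted p = 0.118 in edgeR). Without sh812 replicate 1 the value was 0.24 (adjusted p = 0.223 in edgeR), and without sh812 replicate 2 it was 0.19 (adjusted p = 0.324 in edgeR). CDK4 overlaps TSPAN31 on the opposite strand over 1369 exonic bases, and TSPAN31 had 430 to 520 counts against 4321 to 5479 for CDK4.

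**Figure D2:**
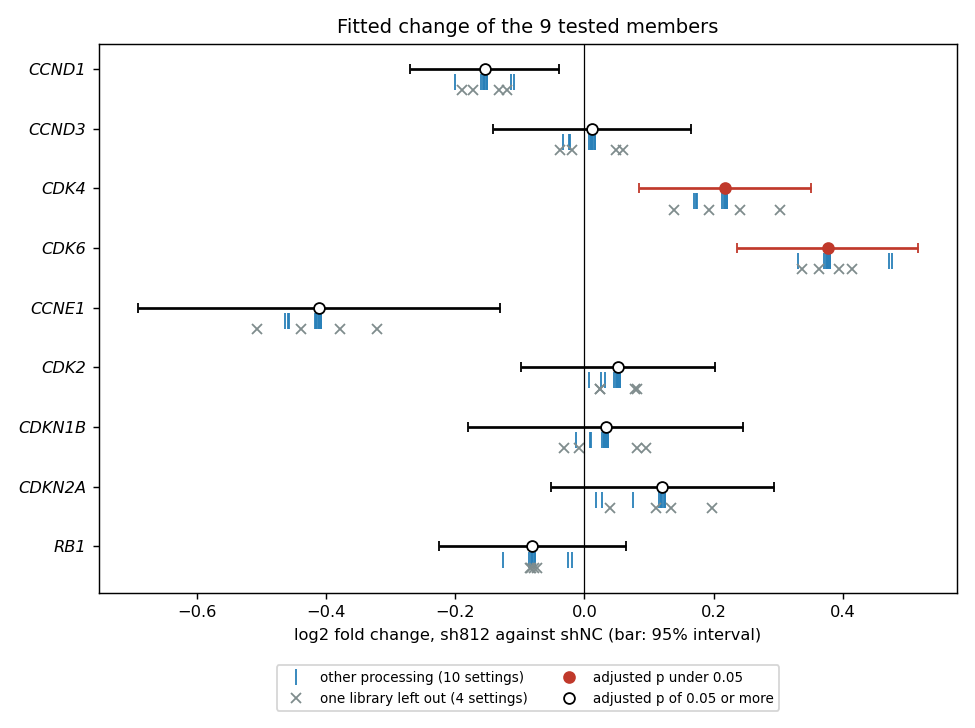
Log2 fold change of the 9 tested members, sh812 against shNC (x axis), with 95% intervals; red points have an adjusted p under 0.05 in edgeR, blue ticks are the 10 other processing settings and grey crosses the 4 fits with a library left out. CDK6 (0.38) and CDK4 (0.22) stand to the right of 0 in each setting, and CCND1 (-0.15) and CCNE1 (-0.41) to the left.

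Both kinases were higher and cyclin D1 was not, so a lower ratio of cyclin to kinase transcripts in sh812 follows from values already given. The ratio was not tested. The D-type cyclins summed to 3.85 and 3.40 times the summed level of CDK4 and CDK6, per kilobase of exon, in shNC. In sh812 the ratio was 2.86 and 2.69, below both controls. With the longest transcript as length it was 3.16 and 2.77 in shNC and 2.36 and 2.23 in sh812. CDK6 made up 12.9% and 11.5% of the kinase pair in shNC and 13.9% and 12.9% in sh812, so its share overlapped between groups. These ratios compare transcripts, not proteins.

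CCNE1 (chr19:29811898-29824308, plus strand) encodes cyclin E1, the activating partner of CDK2 and a known E2F target. It had 11.9 and 11.3 CPM in shNC and 9.29 and 8.16 CPM in sh812, without overlap. The log2 fold change of -0.41 was the largest in size among the 9 tested members, with the largest SE (0.14, 95% interval -0.69 to -0.13). In edgeR the adjusted p was 0.052, just short of the threshold. Across the 14 alternatives the value ran from -0.51 to -0.32, and 6 of them placed it past the threshold. The cause of this dependence was not tested. CCNE1 had 292 to 450 counts per library, fewer than any other tested member.

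CDK2 (chr12:55966769-55972784, plus strand), the kinase that cyclin E activates, had 58.0 and 60.1 CPM in shNC and 60.0 and 62.3 CPM in sh812. Its groups overlapped, and the log2 fold change was 0.05 (95% interval -0.10 to 0.20, adjusted p = 0.729 in edgeR). Per kilobase of exon, CCNE1 transcripts were 0.312 and 0.288 times those of CDK2 in shNC and 0.236 and 0.200 times in sh812. CCNE2, which encodes the related cyclin E2, had 18.1 and 15.5 CPM in shNC and 15.2 and 11.2 CPM in sh812 (log2 fold change -0.35, adjusted p = 0.0959 in edgeR). Leaving out sh812 replicate 1 moved CCNE2 to -0.59, and leaving out sh812 replicate 2 moved it to -0.15. It was called lower with the replicate block (edgeR, adjusted p = 0.0439) and, at -0.45, without shNC replicate 2 (edgeR, adjusted p = 0.00644). CCNE1 made up 53.1% and 55.7% of the cyclin E transcripts per kilobase in shNC and 51.3% and 55.7% in sh812, so the share of the pair overlapped. INTS8 overlaps CCNE2 on the opposite strand over 1629 exonic bases and had 3726 to 4820 counts, against 400 to 685 for CCNE2.

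CDKN1B (chr12:12715058-12722371, plus strand) encodes p27, which inhibits CDK2 and is regulated mostly by protein degradation. It had 22.2 and 20.8 CPM in shNC and 23.0 and 21.1 CPM in sh812, an overlap of the groups. The log2 fold change was 0.03 (95% interval -0.18 to 0.25, adjusted p = 0.891 in edgeR). Relative to CDK2, p27 transcripts per kilobase were at 0.531 and 0.480 in shNC and 0.531 and 0.469 in sh812.

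CDKN2A (chr9:21967753-21995301, minus strand) encodes p16, an INK4 inhibitor of CDK4 and CDK6, and from another first exon the unrelated protein ARF. A count per gene does not separate the products. It had 40.9 and 40.1 CPM in shNC and 41.6 and 46.5 CPM in sh812, so that sh812 lay higher by a narrow margin in replicate 1. The log2 fold change of 0.12 had a 95% interval of -0.05 to 0.29 and an adjusted p of 0.399 in edgeR. With the length trend removed it was 0.03. The antisense gene CDKN2B-AS1 shares 341 exonic bases with CDKN2A and had 49 to 83 counts.

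RB1 (chr13:48303726-48599436, plus strand), the substrate on which these kinases converge, had 67.9 and 68.1 CPM in shNC and 64.2 and 64.4 CPM in sh812. The 2 libraries of each group were closer to each other than to the other group. The fitted log2 difference was -0.08 (95% interval -0.23 to 0.06, adjusted p = 0.53 in edgeR), and it was -0.02 with the length trend removed. Over the 9 tested members 3 were non-overlapping and higher (CDK4, CDK6 and CDKN2A) and 3 non-overlapping and lower (CCND1, CCNE1 and RB1), where 26.2% and 27.4% of all genes tested were so placed (53.6% on either side). The median log2 fold change of the 9 was 0.03, against -0.0056 over all genes.

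Levels of the members were compared per kilobase of exon. In shNC, CCND1 stood first at 158 ± 3.58 CPM per kilobase (SD, n = 2), followed by CDK4 at 40.9 ± 3.15 and CDK2 at 15.2 ± 0.382. RB1 (10.5 ± 0.0238) and CCND3 (10.3 ± 0.375) did not differ beyond their spread. CDKN2A (9.36 ± 0.134), CDKN1B (7.65 ± 0.357), CDK6 (5.66 ± 0.102) and CCNE1 (4.55 ± 0.151) followed, and CCND2 was last. In sh812, CDK6 was at 7.35 ± 0.279 CPM per kilobase and CDKN1B at 7.84 ± 0.483, with overlapping spreads. RB1, CCND3 and CDKN2A, at 9.96 ± 0.0219, 10.4 ± 0.497 and 10.2 ± 0.792, could not be ordered in sh812. The order depends on the length used. With the longest transcript CDKN2A stood next after CDK4 in both groups, at 31.6 CPM per kilobase in shNC and 34.3 in sh812.

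**Figure D3:**
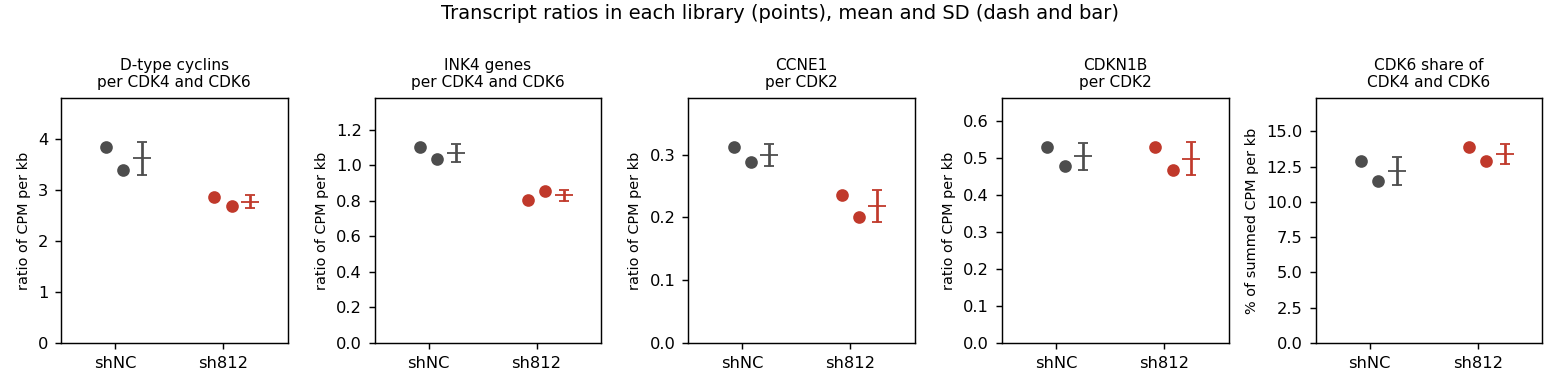
Ratios of transcript levels per kilobase of exon (y axes from 0) in each library: D-type cyclins and INK4 genes (CDKN2A, CDKN2B, CDKN2C, CDKN2D) per CDK4 and CDK6, CCNE1 and CDKN1B per CDK2, and the CDK6 share in %; points are libraries and the dash with bar is the mean and SD. The first 3 ratios are lower in both sh812 libraries, and the last 2 overlap. Each ratio restates the levels of its genes, and none was tested.

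The change also varied with transcript length across the whole table. Longer transcripts tended to lower values in sh812, with a Spearman correlation of -0.33 between longest transcript and log2 fold change over the 12282 better-measured genes (mean log2 CPM above 1). It was -0.32 for shNC replicate 2 against replicate 1 and 0.04 for sh812 replicate 2 against replicate 1. These correlations are across genes, which are not independent, and serve as descriptions. The longest transcript of CDK6, 11612 bases, exceeds that of 97.9% of tested genes, and that of CDK4, 2076 bases, exceeds 27.9%. In the longest of 10 length groups the median log2 fold change was -0.10, and 2.04% of its 1226 genes were at or above the value of CDK6. Removing the trend raised CDK6 to 0.47 and lowered CDK4 to 0.17. For CCND1, with 4307 bases, the value was -0.11 after removal, and CCNE1, with 2043 bases, was called lower at -0.46 (adjusted p = 0.0292 in edgeR).

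**Figure D4:**
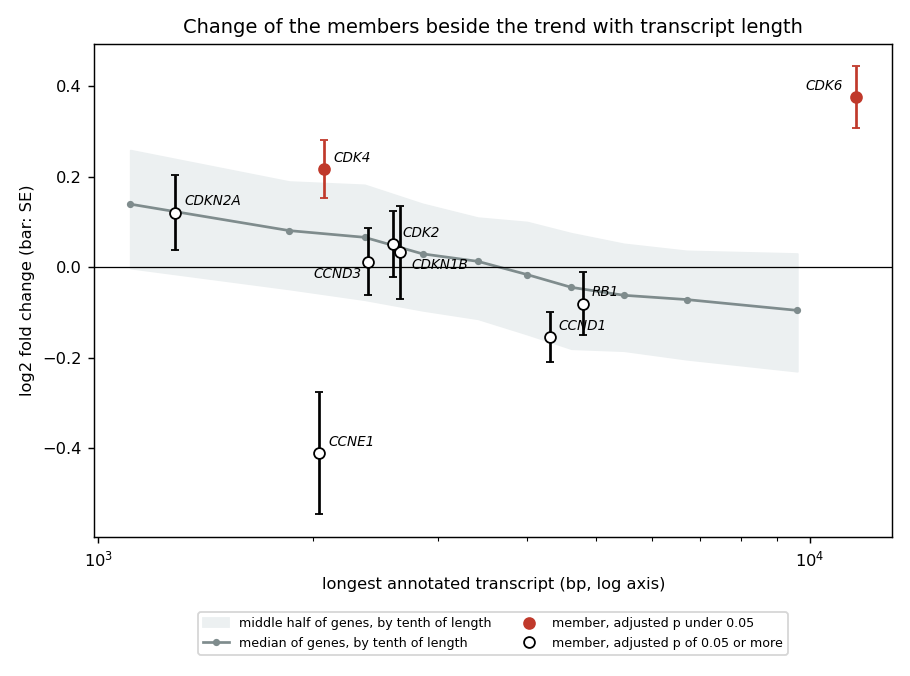
Log2 fold change of the 9 tested members (y axis, bars are SE) against the longest annotated transcript in bases (log x axis); the grey line joins the medians of 10 groups of genes by length and the shading spans their quartiles. CDK6, at 11612 bases and 0.38, lies to the right of the end of the shaded band and above its level there, CDK4 just above the band, CCNE1 below it, and the others within it.

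The letters GGACT, a common form of the motif that the METTL3 complex methylates, were counted in the longest transcript of each member. CDK2 had 5 of them, or 1.92 per kilobase, more than 89.9% of tested genes. CDK6 had 6 in its long transcript, or 0.517 per kilobase, and CDK4 had 1, or 0.482 per kilobase, below the median of 0.909 over tested genes. CCND1 (0.929) and CCNE1 (0.979) were near that median, and CDKN2A had 0 sites. Methylation was not measured, and the letters alone do not mark a site.

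The other genes of the pathway were read from 7 lists with 67 genes, of which 65 were tested. Of these, 7 were called higher and 3 lower, beside 5.43% and 5.42% of all genes tested. Their median log2 fold change was 0.06, against -0.0056 over all genes. The lists were written with earlier results of these data known, and their counts give no independent support.

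Among the other inhibitors, all 5 were tested, 0 were called higher and 1 lower, beside 5.43% and 5.42% of all genes tested. The 1 called lower was CDKN2B, which encodes p15 and neighbours CDKN2A. It had 72.9 and 72.5 CPM in shNC and 60.5 and 63.9 CPM in sh812, and it fell by 0.23 on the log2 scale (SE 0.07, adjusted p = 0.0399 in edgeR). CDKN1A (p21), CDKN1C (p57), CDKN2C (p18) and CDKN2D (p19) had log2 values of -0.24, -0.34, -0.04 and -0.35 (edgeR, adjusted p = 0.059, 0.462, 0.844 and 0.0676). CDKN1A was called lower under 6 of the 14 alternatives, the replicate block included (edgeR, adjusted p = 0.0357), and its value was -0.14 without shNC replicate 2. CDKN2D was called lower under 3, with library size alone and with the length trend removed, alone or with GC. CDKN1C was at -0.15 without shNC replicate 2 and at -0.22 without sh812 replicate 1. The list's count called lower ran from 0 to 3 over the alternatives. The median of the 5 was -0.24. It became -0.34 on leaving out shNC replicate 1, and -0.15 on leaving out the other control. The call of CDKN2B was lost with DESeq2 and with the length trend removed (adjusted p = 0.055 from DESeq2 and from edgeR), and without sh812 replicate 1 or 2 (edgeR, adjusted p = 0.41 and 0.19). Per kilobase of exon, the 4 INK4 genes summed to 1.10 and 1.03 times CDK4 plus CDK6 in shNC and 0.806 and 0.853 times in sh812. CDKN2A alone was at 0.213 and 0.190 in shNC and 0.177 and 0.193 in sh812, an overlap of the groups. CDK4 and CDK6, the divisor, were called higher, and CDKN2B, part of the INK4 sum, was called lower. The lower ratio of that sum thus follows from values already given, and the ratio was not tested.

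Of the pocket proteins related to RB, RBL2 (p130) was called lower and RBL1 (p107) was not. RBL2 had 32.0 and 26.8 CPM in shNC and 20.3 and 23.0 CPM in sh812, and it fell by 0.44 on the log2 scale (SE 0.11, adjusted p = 0.00747 in edgeR). The call was lost without shNC replicate 1 (edgeR, adjusted p = 0.0582) and without sh812 replicate 1 (edgeR, adjusted p = 0.217). RBL2 overlaps AKTIP, which had 651 to 772 counts, on the opposite strand over 610 exonic bases. RBL1 had a log2 fold change of -0.14 (adjusted p = 0.31 in edgeR). RB1 made up 44.3% and 47.7% of the pocket protein transcripts per kilobase in shNC and 48.0% and 49.0% in sh812. Whether the change of RBL2 differs from that of RB1 was not tested.

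None of the 10 E2F and DP factors was called, in either direction, where 10.8% of all genes tested were, and the median of the 10 was 0.05. The activators E2F1, E2F2 and E2F3 had log2 fold changes of 0.13, 0.10 and -0.20. The repressors E2F4, E2F5 and E2F6 were at 0.19, 0.14 and -0.07, and E2F7 and E2F8, which act late in the cycle, were at -0.05 and -0.24. Their dimer partners TFDP1 and TFDP2 were at 0.06 and 0.03. Adjusted p-values of the 10 ran from 0.0908 upward in edgeR. At an unadjusted p under 0.05 in edgeR, which 4161 of 16802 genes passed, 1 of the 10 was higher and 1 lower. DESeq2 and limma-voom called 0 of them, while E2F3 was called lower with library size alone and E2F4 higher without shNC replicate 2.

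Of 20 E2F target genes, 5 were called higher and 0 lower, beside 5.43% and 5.42% of all genes tested. In this list, written with earlier results of these data known, 19 had a fitted value above 0, as did 49% of all genes tested. The median was 0.13. UNG, a uracil DNA glycosylase, had 122 and 128 CPM in shNC and 164 and 169 CPM in sh812, and rose by 0.41 (SE 0.06, adjusted p = 8.37e-05 in edgeR). MYBL2, a transcription factor of proliferating cells, rose by 0.29 (adjusted p = 0.00271 in edgeR). MCM6 and MCM4, subunits of the replicative helicase, rose by 0.28 and 0.20 (adjusted p = 0.00359 and 0.0417 in edgeR). PCNA, the sliding clamp of DNA polymerase, rose by 0.19 (adjusted p = 0.035 in edgeR). These counts describe this list alone. E2F targets outside it were not counted, so 19 of 20 does not describe E2F targets as a class. CCNE1, an example of a target outside the list, had the opposite sign and need not be the only one. With the length trend removed the value of PCNA was 0.10 and was not called (edgeR, adjusted p = 0.241). The list had 3 genes called higher with library size alone, 9 without shNC replicate 2, and 1 (UNG) without sh812 replicate 1 or 2.

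Of the genes that degrade cyclin D, cyclin E or p27, 1 of 10 was called higher and 1 lower, counts too small to set apart from the 5.43% and 5.42% over all genes. CKS1B, a cofactor of the ubiquitin ligase that targets p27, rose by 0.20 (SE 0.06, adjusted p = 0.0375 in edgeR), and its ligase partner SKP2 had 0.22 (adjusted p = 0.0531 in edgeR). AMBRA1, the receptor that directs D-type cyclins to degradation, had 26.4 and 28.9 CPM in shNC and 20.5 and 19.9 CPM in sh812, and fell by 0.45 (SE 0.10, adjusted p = 0.00437 in edgeR). FBXW7, which targets cyclin E, had -0.40 (adjusted p = 0.0616 in edgeR). FBXW7 was at -0.25 without shNC replicate 1, and was called lower with library size alone (edgeR, adjusted p = 0.0435) and without shNC replicate 2 (edgeR, adjusted p = 0.00552). SKP2 was called higher under 6 of the 14 alternatives, the replicate block included (edgeR, adjusted p = 0.0442). CKS1B was at 0.10 and not called with the length trend removed (edgeR, adjusted p = 0.286). Neither CKS1B nor AMBRA1 was called without sh812 replicate 1 or 2.

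Of the other G1 cyclins and kinases, 8 of 10 were tested, 1 was called higher and 0 lower. These counts are too small to set apart from the 5.43% and 5.42% over all genes. The gene called was CDC25A, the phosphatase that removes inhibitory phosphates from CDK2. It had 60.4 and 59.8 CPM in shNC and 77.0 and 70.8 CPM in sh812 (log2 fold change 0.30, SE 0.07, adjusted p = 0.00882 in edgeR). It was not called without sh812 replicate 1 or 2 (edgeR, adjusted p = 0.282 and 0.0581). Of the 10 RB chromatin partners and DREAM subunits, 0 were called in edgeR (10.8% over all genes tested), DESeq2 or limma-voom. At an unadjusted p under 0.05 in edgeR, which 4161 of 16802 genes passed, 1 was higher and 1 lower. HDAC2, chosen after its values were seen, was called higher with the length trend removed, alone or with GC, and without shNC replicate 1. ARID4A, likewise chosen, was called lower without shNC replicate 2. The median of the 10 was 0.03, and -0.02 with library size alone.

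**Figure D5:**
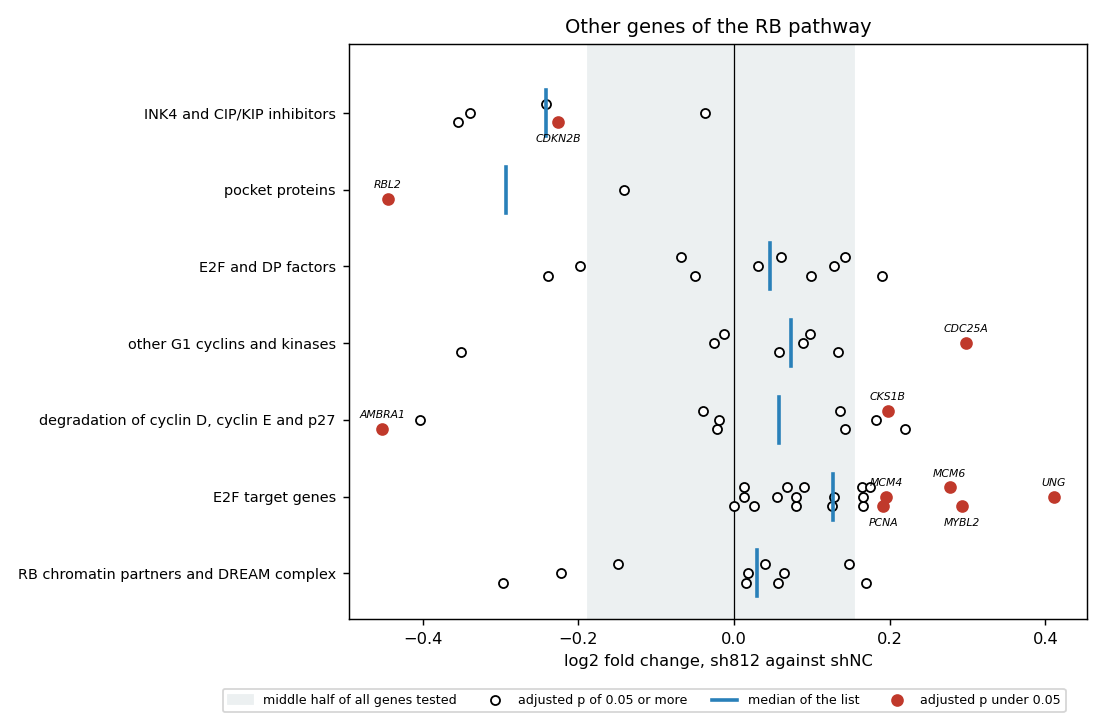
Log2 fold change of the 65 tested genes of the 7 pathway lists (x axis), with the median of each list in blue, genes with an adjusted p under 0.05 in edgeR in red, and the quartile range of all 16802 genes shaded. The 5 called E2F target genes lie to the right and RBL2, AMBRA1 and CDKN2B to the left.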

How the data were processed

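The authors deposited a table of raw read counts per gene (whole numbers, different totals per library). The submitters' processing notes name fastp, STAR 2.7.1a, featureCounts, DESeq2 and build hg38, without roles. Not given in the sources used here are the annotation release, the strand setting and whether reads or read pairs were counted.

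Genes were filtered with filterByExpr, scaled by TMM and tested in edgeR 4.0.16 (R 4.3.3; glmQLFit, glmQLFTest, 2 sh812 against 2 shNC libraries, no covariate). P-values were adjusted over 16802 genes. SEs come from the quasi-likelihood F statistic, and 95% intervals use its t quantile. CPM is per TMM-scaled library of tested genes. Positions, lengths and overlaps come from GENCODE 29 (GRCh38). Members and lists were chosen with earlier results of these data known. Named are all members, METTL3, markers (some are not reported here), called list genes (at most 4 per list and direction, except that the fifth E2F target called is named too, chosen after its values were seen), complete inhibitor, pocket protein and E2F families, and further list genes (CCNE2, SKP2, FBXW7, HDAC2, ARID4A) chosen after their values were seen. Replicates differed by more than sampling noise (chi-square per gene 8.49 for shNC and 4.50 for sh812), which does not show that they were separate cultures. Each library was counted as a replicate. Alternatives used other scalings, filters, a replicate block, length and GC trends removed (lowess, span 0.3), DESeq2 1.42.0, limma-voom (limma 3.58.1) and each library left out. The fits were tested on simulated data, with planted changes larger than that of any tested member (at most 0.41 in size on the log2 scale). In that simulation 8 of 177 edgeR calls were false. How often changes of the size seen in the members are called was not examined.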

Additional observations from a re-analysis of the deposited data

How the results depend on the processing

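Library size alone gave 561 genes higher and 1328 lower (29.7% of calls higher, against 50.1%), with 1 member higher (CDK6) and 2 lower (CCND1, CCNE1). With the length trend removed, alone or with GC, 1 member was higher (CDK6) and 1 lower (CCNE1). Members called lower numbered 2 without a low-count filter (CCND1, CCND2), and 1 with a mean CPM of at least 1 (CCNE1) or limma-voom (CCND1). DESeq2 gave the same 2 higher and 0 lower. Among members, 2 values changed sign and were not called under any setting: CCND3 was -0.033 with library size alone, -0.0228 with the length trend removed and -0.0239 with GC added, and CDKN1B was -0.0124 with library size alone. The replicate numbers mark no shared batch in the labels, and deviations of same-numbered libraries correlated at 0.0367 across genes. The replicate block gave 1003 genes higher and 998 lower, and 1 member lower (CCNE1, -0.41, adjusted p = 0.0423 in edgeR). Leaving out a library leaves 1 sample in a group, assumed to vary like the others. Over these 4 fits, from 130 to 1743 genes were higher (130 without sh812 replicate 1, 152 without sh812 replicate 2, 1743 without shNC replicate 2) and from 183 to 1583 lower, with 0 to 2 members higher and 0 to 2 lower. CCND3 ran from -0.0373 to 0.0601 and CDKN1B from -0.0310 to 0.0947. Among list genes that were not called, values changed sign for E2F7 (0.0246 with the length trend removed, 0.0198 with GC added), for TFDP2 (-0.0143 with library size alone), and in fits without a library for CDKN2C (-0.118 to 0.0491), E2F2 (-0.100 to 0.274), E2F6 (-0.140 to 0.00771), E2F7 (-0.129 to 0.0410), TFDP2 (-0.0153 to 0.0754) and ARID4A (-0.309, when it was called lower, to 0.0430). The causes were not tested. CCND2 had at most 44 counts in a library and CCNE1 292 to 450, and the part of depth in their results was not tested.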
